A study of Mus musculus with 6 samples.

Results

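Haem synthesis in the liver begins with Alas1, and in these data its messenger RNA was 7.52-fold lower in FR F1 livers than in control F1 livers, whereas 5 of the 6 later synthesis genes differed by at most 0.08 on the log2 scale. The remaining one, Cpox, was 1.59-fold higher in FR F1 livers. Described here are 7 enzymes of haem synthesis in pathway order (Alas1, Alad, Uros, Urod, Cpox, Ppox and Fech). The biliverdin reductases Blvra and Blvrb, of haem degradation, bring the set to 9 genes. These genes were chosen on the FR F1 against control F1 difference of Alas1 in these same libraries, so the values of that contrast are given as a description, with no p-value, and the counts of members past a threshold given beside those of all genes are not evidence for the set. The set does not cover every step of synthesis or degradation, and other steps are not analysed here. All 9 genes are among the 53715 genes listed and among the 13022 with enough counts to be tested.

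Polyadenylated liver RNA of F1 males of the outbred ICR stock, aged 8 weeks, was sequenced in 6 libraries, 3 of control F1 and 3 of FR F1. The labels describe the FR F1 group by paternal famine and the control F1 group as control, the series title speaks of paternal overdiet, and FR itself is not explained. Both groups share strain, sex, tissue and age, and no allele, transgene or treatment of the F1 animals themselves is given. The labels do not say whether replicates are separate animals, so the spread between libraries, and every p-value below, may measure technical variation only.

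Haem is an iron-bearing porphyrin built partly in the mitochondrion and partly in the cytosol. Alas1 encodes 5-aminolevulinate synthase, the housekeeping isoform and the rate-limiting enzyme in hepatocytes, where most haem goes into cytochromes P450. Its transcription is known to respond to haem itself, to fasting and feeding signals, to drugs acting through nuclear receptors and to the circadian clock. The later enzymes are regarded as present in excess of need in liver.

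Alas1 (ENSMUSG00000032786.16) lies on the minus strand of chromosome 9, at chr9:106233455-106248654 on mm10. The bases upstream of the start sites of Alas1, Alad and Cpox are shown because Alas1 and Cpox are the members that differed most and Alad is the next enzyme after Alas1. The sequences are from RefSeq on build GRCm38.p6, each read 5′ to 3′ on the strand of its gene. Capitals mark matches, on either strand, to the E-box CACGTG, the site of clock and related factors, or to GCGCANGC, a core of the site of nuclear respiratory factor 1.
Alas1, chr9:106247857-106247980, minus strand, 124 bases ending at an annotated transcript start: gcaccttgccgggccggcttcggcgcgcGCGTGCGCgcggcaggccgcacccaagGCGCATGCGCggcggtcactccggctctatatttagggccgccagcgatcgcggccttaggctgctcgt
Alad, chr4:62519919-62520159, minus strand, 241 bases ending at an annotated transcript start: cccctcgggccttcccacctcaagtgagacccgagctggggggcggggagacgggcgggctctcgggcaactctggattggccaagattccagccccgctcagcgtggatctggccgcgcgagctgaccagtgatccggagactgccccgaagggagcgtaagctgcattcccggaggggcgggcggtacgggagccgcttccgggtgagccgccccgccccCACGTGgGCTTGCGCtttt
Cpox, chr16:58669958-58670257, plus strand, 300 bases ending 34 bases before the annotated transcript start: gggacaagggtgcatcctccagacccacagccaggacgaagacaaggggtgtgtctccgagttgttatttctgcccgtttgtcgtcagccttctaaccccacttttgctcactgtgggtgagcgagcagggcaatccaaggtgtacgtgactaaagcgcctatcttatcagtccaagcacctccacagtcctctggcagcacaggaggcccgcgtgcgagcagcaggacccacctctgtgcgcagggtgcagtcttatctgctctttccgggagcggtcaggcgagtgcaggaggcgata
The Alas1 stretch holds 3 matches to the nuclear respiratory factor core, whose first bases lie 96, 69 and 67 bases upstream of the start, and the last pair overlap in 1 run of capitals. The Alad stretch holds 1 E-box, 19 bases upstream, and 1 nuclear respiratory factor core, 12 bases upstream. The Cpox stretch holds neither.

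Promoter windows from 250 bases before to 50 bases after a start were found for 8 of the 9 genes, 12 windows in all, since some genes have more than 1 start and their windows can overlap. The nuclear respiratory factor core was found in 4 of the 12 windows, those of Alas1, Alad and Uros, and in 9.95% of the 32851 windows of the same length in the RefSeq table. The 2 Alas1 windows overlap and hold the same 3 matches, which lie downstream of the more 5′ start and upstream of the other. The windows with this GC-rich core were 60.3% to 73.3% GC, against a median of 52.7% over all windows. The E-box was found in 4 of the 12 windows, those of Alad, Uros and Urod, and in 7.15% of all windows. Neither the D-box TTANGTAA, present in 2.32% of all windows, nor the nuclear receptor half-site AGGTCA, present in 16.3%, was found in any of the 12. These letters are descriptions of the windows, and no binding was measured in this series.

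Library totals ranged from 2279755 to 2730160 counts. Over all tested genes 109 passed the threshold of an edgeR adjusted p under 0.05, 51 of them higher and 58 lower in FR F1, and the median log2 fold change of all 13022 was 0.00. Only 13 of 21769 protein-coding genes had more than 1 count per base pair of their longest transcript in any library. The differences of highly abundant genes could thus be understated. For the 9 genes, density was taken on the longest well supported coding transcript. On it the highest was 0.696 counts per base pair, for Alad, and that of Alas1 was 0.545 in control F1 and 0.0868 in FR F1. With the shortest such transcript Alas1 was the densest, at 0.79 against 0.72 for Alad. In bulk liver RNA, fewer cells of a type and less RNA per cell cannot be told apart.

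**Figure D1:**
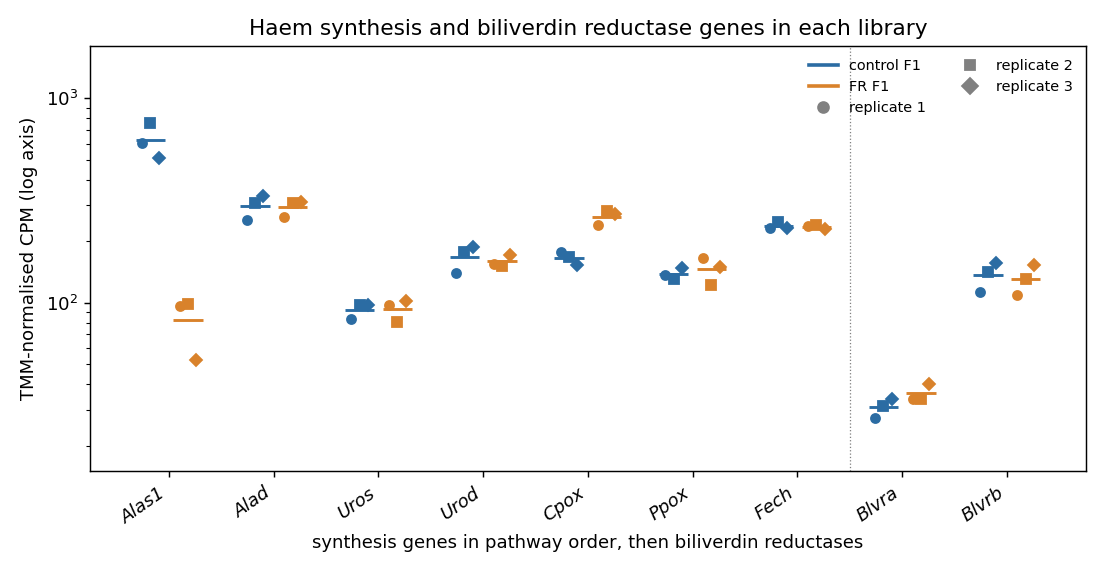
TMM-normalised CPM (log axis) of the 7 haem synthesis genes in pathway order and, right of the dotted line, the 2 biliverdin reductase genes, with 1 point for each library and a bar at each group mean (n = 3 per group). The Alas1 points of the groups are far apart, those of Cpox are apart in the other direction, and those of Alad, Uros, Urod, Ppox, Fech and Blvrb overlap.

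Alas1 counts were 1391, 1682 and 1322 in control F1 replicates 1, 2 and 3 and 258, 268 and 128 in FR F1 replicates 1, 2 and 3. As CPM, a gene's share of its library's counts on a common scale set with TMM factors, these were 603, 758 and 507 CPM in the control F1 libraries against 96.5, 98.8 and 52.5 CPM in the FR F1 libraries. Every FR F1 library lay far below every control F1 library, and FR F1 replicate 3 was the lowest of the 6. The group means were 623 ± 127 CPM and 82.6 ± 26.1 CPM (SD, n = 3 each), a log2 fold change of -2.91 ± 0.26 (SE). Alas1 varied between replicates by 20.3% of the mean in control F1 and 31.6% in FR F1, more than the later enzymes of the pathway listed next. By the size of its fold change, in either direction, Alas1 ranked 26 of the 13022 tested genes. It shares 465 of its 6174 exonic base pairs with the antisense gene 4930500F10Rik, which had 2 counts in all libraries together.

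Alad, Uros and Urod carry out the next steps, in the cytosol. Alad (ENSMUSG00000028393.10, chr4:62509169-62519918, minus strand) encodes the dehydratase that joins aminolevulinate into porphobilinogen, and it stood at 254, 306 and 333 CPM in the control F1 libraries against 261, 306 and 309 CPM in the FR F1 libraries. The FR F1 libraries lay inside the control F1 range, and the means were 298 ± 40.0 and 292 ± 26.8 CPM, a log2 fold change of -0.03 ± 0.13. Uros (ENSMUSG00000030979.13, chr7:133686243-133710072, minus strand) encodes uroporphyrinogen III synthase, which closes the porphyrin ring, and was at 82.8, 97.4 and 97.0 CPM in the control F1 libraries against 97.2, 80.3 and 102 CPM in the FR F1 libraries. The groups overlapped almost fully, with a log2 fold change of 0.01 ± 0.15. Urod (ENSMUSG00000028684.14, chr4:116989965-116994413, minus strand) encodes the decarboxylase that makes coproporphyrinogen, with 140, 177 and 187 CPM in the control F1 libraries against 154, 151 and 172 CPM in the FR F1 libraries. Its FR F1 libraries again lay within the control F1 range, and the log2 fold change was -0.08 ± 0.14.

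Cpox (ENSMUSG00000022742.5, chr16:58670292-58717636, plus strand) encodes coproporphyrinogen oxidase, at the step where the pathway returns to the mitochondrion. Its counts were 406, 371 and 400 in control F1 and 645, 759 and 658 in FR F1, which is 176, 167 and 153 CPM against 241, 280 and 270 CPM. Every FR F1 library lay above every control F1 library, and replicates varied by only 6.89% and 7.6% of the mean. The means were 166 ± 11.4 and 264 ± 20 CPM, a log2 fold change of 0.67 ± 0.12. Cpox overlaps Gpr15 on the opposite strand by 204 of 6661 exonic base pairs, and Gpr15 had 0 counts in every library.

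Ppox and Fech complete the pathway in the mitochondrion. Ppox (ENSMUSG00000062729.11, chr1:171275990-171281186, minus strand) encodes protoporphyrinogen oxidase and stood at 136, 130 and 148 CPM in the control F1 libraries against 166, 122 and 149 CPM in the FR F1 libraries. FR F1 replicates 1 and 2 were the highest and the lowest of the 6 libraries, and the log2 fold change was 0.07 ± 0.15. Because 791 of its 4515 exonic base pairs are shared with B4galt3 on the opposite strand, which had 702 counts in all, and no source used here gives the strand setting, part of the Ppox counts may belong to B4galt3. Fech (ENSMUSG00000024588.8, chr18:64452914-64490251, minus strand) encodes ferrochelatase, which inserts iron into protoporphyrin. It was at 232, 248 and 233 CPM in the control F1 libraries against 236, 240 and 229 CPM in the FR F1 libraries. These were the closest values of any member, with 237 ± 9.09 and 235 ± 5.31 CPM, a spread between replicates of 3.83% and 2.26% of the mean, and a log2 fold change of -0.01 ± 0.10.

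Blvra and Blvrb encode biliverdin reductases, and Blvrb also acts as a flavin reductase. Blvra (ENSMUSG00000001999.15, chr2:127070665-127097084, plus strand) had only 63 to 98 counts per library. It stood at 27.3, 31.1 and 33.8 CPM in the control F1 libraries against 34.0, 33.9 and 40.2 CPM in the FR F1 libraries, so the groups were apart by a narrow margin, and the log2 fold change was 0.23 ± 0.18. Blvrb (ENSMUSG00000040466.16, chr7:27447978-27466144, plus strand) was at 113, 141 and 156 CPM in the control F1 libraries against 109, 131 and 153 CPM in the FR F1 libraries. The Blvrb groups overlapped, with a log2 fold change of -0.06 ± 0.18. Within a library there were 4.13, 4.52 and 4.62 Blvrb counts for each Blvra count in control F1 and 3.21, 3.86 and 3.81 in FR F1, lower in every FR F1 library.

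Within the control F1 group the members did not move as one. Control F1 replicate 1 had the lowest control CPM of Alad, Uros, Urod, Fech, Blvra and Blvrb, yet the highest of Cpox. Control F1 replicate 3 had the highest control CPM of Alad, Urod, Ppox, Blvra and Blvrb, yet the lowest of Alas1 and Cpox. In FR F1, replicate 3 was highest for Alad, Uros, Urod, Blvra and Blvrb and lowest for Alas1 and Fech. Alas1 was thus lowest in replicate 3 of each group, and the labels give no link between libraries of the same number.

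**Figure D2:**
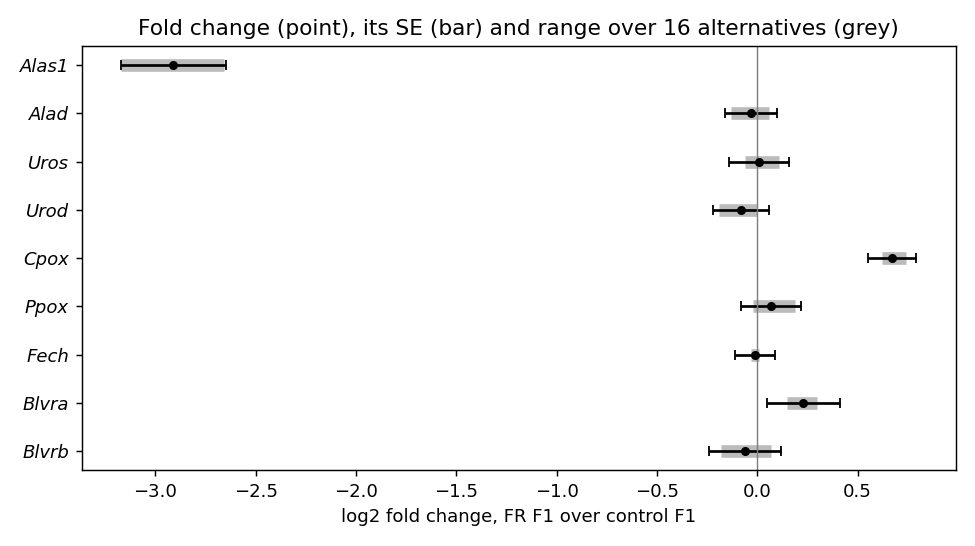
Log2 fold change of FR F1 over control F1 for each of the 9 genes (points), its SE (bars) and its lowest to highest value over 16 other ways of processing (grey bands). Alas1 lies between -3.17 and -2.66 and Cpox between 0.62 and 0.74 under every alternative, while Alad, Uros, Urod, Ppox, Fech and Blvrb span or touch 0.

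Of the 9 genes, 2 were past the edgeR threshold (adjusted p under 0.05), Alas1 lower and Cpox higher, where 0.837% of all tested genes were past it. The same 2 had an unadjusted p under 0.05, as 17.9% of all tested genes did, and 3 (Alas1, Cpox and Blvra) had groups that did not overlap, as 25.7% of all tested genes did. Since Alas1 put the set forward, nothing is read from these counts. The median log2 fold change of the 9 was -0.01, with 4 positive and 5 negative, beside 0.00 over all tested genes. Without FR F1 replicate 1 neither gene was past the threshold, with log2 fold changes of -3.03 for Alas1 and 0.74 for Cpox. Cpox was also outside it with all 6 libraries under limma-voom (0.67), RLE factors (0.68), the stricter filter on low counts (0.68) and the replicate block (0.67). The same held for Cpox without control F1 replicate 2 (0.67) or 3 (0.62) and without FR F1 replicate 2 (0.63) or 3 (0.66), so it lay outside under 9 of the 16 alternatives.

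Levels can be set side by side between genes only per length of transcript. With the longest well supported coding transcript of each gene, in control F1 livers Alad stood highest at 239 ± 32.1 CPM per kb and Alas1 next at 202 ± 41.0, and their distance was smaller than the SD of Alas1. Blvrb followed at 133 ± 21.4, Fech at 115 ± 4.42 and Urod at 113 ± 16.6 CPM per kb, again within their spread of one another. Ppox (75.8 ± 5.01 CPM per kb) lay above Cpox (53.5 ± 3.68) and Uros (52.4 ± 4.71), and that last pair did not differ beyond their spread. Blvra was lowest at 26.5 ± 2.79 CPM per kb.

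The order in FR F1 livers differed in the places of Alas1 and Cpox. On the same lengths Alas1 had the lowest group mean, 26.7 ± 8.44 CPM per kb, within its SD of Blvra at 31.1 ± 3.11. By library, Alas1 was last only in FR F1 replicate 3 (17.0 against 34.7 for Blvra). In FR F1 replicates 1 and 2 Blvra was last (29.3 and 29.2 against 31.2 and 32.0 for Alas1). Cpox moved up in the order to 85.1 ± 6.47 CPM per kb, next to Ppox at 79.8 ± 12.1. Alad (234 ± 21.5), Blvrb (127 ± 21.3), Fech (114 ± 2.58), Urod (107 ± 7.77) and Uros (52.9 ± 6.5) kept the order they had among themselves in control F1. These places rest on the length of 1 annotated transcript per gene, the longest coding one of best support. With the shortest such transcript, of 2129 rather than 3089 base pairs, Alas1 stood at 293 ± 59.7 CPM per kb in control F1, above Alad at 247 ± 33.2, and at 38.8 ± 12.3 in FR F1, above Blvra. Uros then stood at 88.4 ± 7.94 CPM per kb in control F1, above Ppox and Cpox. The difference between the groups within a gene does not change with the length.

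Ratios of counts within a library need no scaling between libraries. Of the counts of the 7 synthesis genes, Alas1 made up 37.2%, 40.2% and 30.6% in control F1 and 7.71%, 7.73% and 4.09% in FR F1. Thus the gene with the most counts of the 7 in every control F1 library was the lowest in FR F1 replicates 1 and 3 and, after Uros, next to the lowest in FR F1 replicate 2. Cpox made up 10.8%, 8.88% and 9.25% in control F1 and 19.3%, 21.9% and 21% in FR F1. There were 2.60, 3.06 and 2.18 Alas1 counts per Fech count in control F1 and 0.409, 0.412 and 0.229 in FR F1, and 3.43, 4.53 and 3.31 per Cpox count in control F1 against 0.400, 0.353 and 0.195 in FR F1. Alas1 counts per count of Alad, the enzyme just after it, were 2.37, 2.48 and 1.52 against 0.370, 0.323 and 0.170. Every one of these ratios was several times lower in the FR F1 libraries. Cpox per Fech was 0.760, 0.675 and 0.659 in control F1 and 1.02, 1.17 and 1.18 in FR F1, higher in every FR F1 library. Cpox per Urod, the enzyme just before it, was 1.26, 0.944 and 0.821 against 1.56, 1.86 and 1.57. The 6 synthesis genes other than Alas1 summed to 1100 ± 70.0 CPM in the control F1 libraries against 1190 ± 36.1 CPM in the FR F1 libraries.

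**Figure D3:**
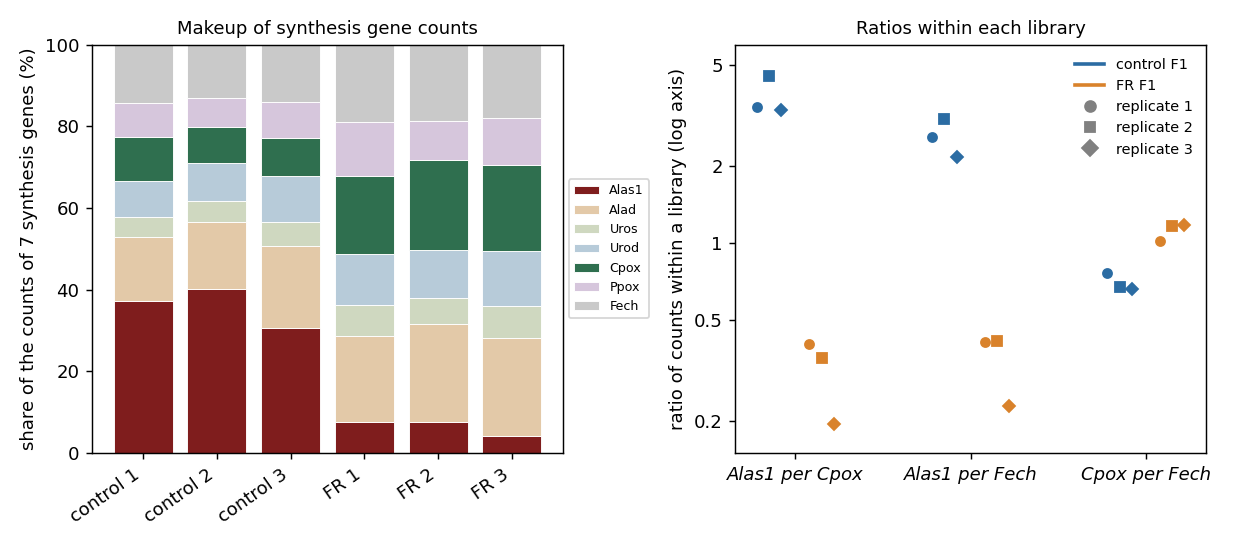
Left, share (%) of each of 7 synthesis genes in their joint counts in each library. Right, count ratios within each library on a log axis (points are libraries, n = 3 per group). Alas1 takes 30.6% to 40.2% in control F1 and 4.09% to 7.73% in FR F1, and both Alas1 ratios and the Cpox to Fech ratio separate the groups.

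By root-mean-square difference of centred log2 CPM over the 6 libraries, the genes most like Alas1 among 9932 with a mean CPM of at least 10 were Cyp21a1 (0.34), Gnat1 (0.57), Smyd1 (0.59), Noct (0.60) and Orm3 (0.61). Cyp21a1, a steroid hydroxylase best known from the adrenal gland, stood at 75.4, 57.7 and 74.4 CPM in the control F1 libraries against 9.35, 7.74 and 6.15 CPM in the FR F1 libraries. Like Alas1, and like Gnat1, Noct and Orm3, it was lowest in FR F1 replicate 3. Within control F1, Cyp21a1 was lowest in replicate 2, where Alas1 was highest. Gnat1, the transducin subunit of rod cells, stood at 125, 105 and 120 CPM against 29.5, 26.9 and 26.7 CPM. Smyd1 is a muscle methyltransferase, Noct a rhythmic gene encoding nocturnin and Orm3 an acute phase orosomucoid. The other 8 members were further from Alas1, from 1.49 for Urod to 1.84 for Cpox. Because the measure runs over both groups, it is mostly set by the group difference on which Alas1 was chosen. Genes near Alas1 had to be lower in FR F1, and members without that difference had to lie far off. Nothing is therefore read from these distances.

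**Figure D4:**
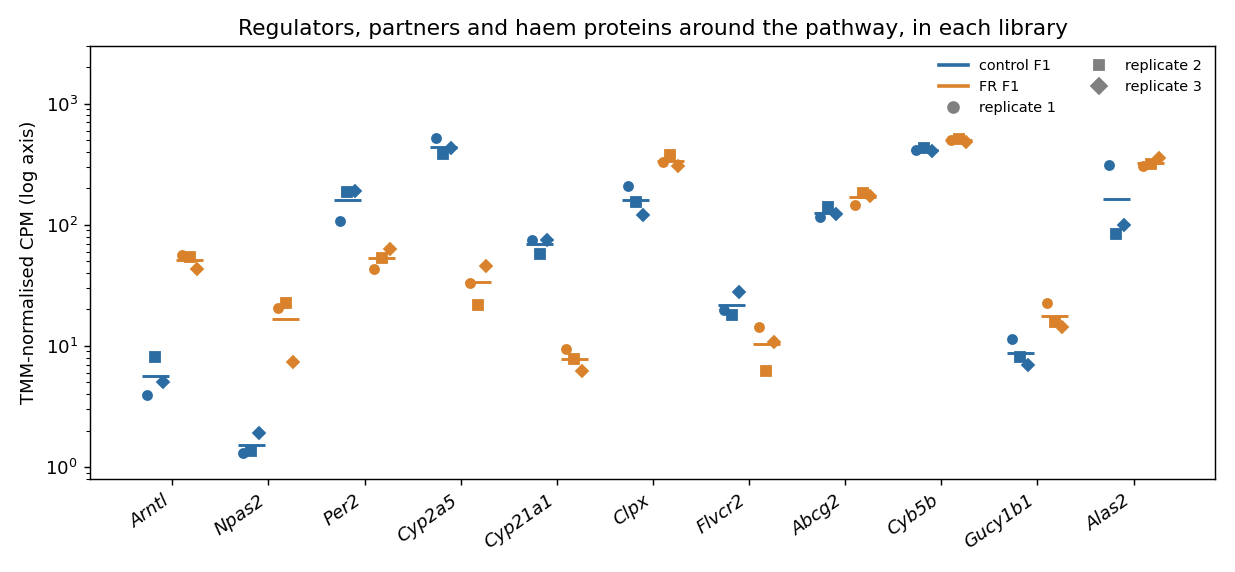
TMM-normalised CPM (log axis) in each library of genes around the pathway, with a bar at each group mean (n = 3 per group). Arntl and Npas2 are higher and Per2, Cyp2a5 and Cyp21a1 lower in every FR F1 library, Clpx is above every control F1 library in FR F1, and Alas2 overlaps because control F1 replicate 1 lies at the FR F1 level.

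Known transcriptional regulators of Alas1 were counted as a list of 21 genes, all tested. Of these, 2 were higher and 1 lower past the edgeR threshold, as 0.837% of all tested genes were in either direction. The median log2 fold change of the 21 was -0.32. Arntl, the clock activator also called BMAL1, stood at 3.90, 8.11 and 4.99 CPM in the control F1 libraries against 56.8, 54.2 and 43.5 CPM in the FR F1 libraries, a log2 fold change of 3.18 ± 0.29 (edgeR adjusted p = 0.00579). Npas2, a haem-binding partner of Arntl, stood at 1.30, 1.35 and 1.92 CPM against 20.6, 22.5 and 7.39 CPM (3.41 ± 0.54, edgeR adjusted p = 0.0385). Both clock activators were thus higher in every FR F1 library. The clock repressor Per2 was lower, with 108, 185 and 190 CPM against 43.4, 52.7 and 63.6 CPM (-1.60 ± 0.25, edgeR adjusted p = 0.0385). These calls were lost for Arntl without FR F1 replicate 1 (3.11) or 2 (3.14), for Npas2 also without control F1 replicate 2 (3.33), and for Per2 without control F1 replicate 2 (-1.49) or any FR F1 replicate (-1.73 to -1.46). The Npas2 call was also lost with limma-voom (3.17) and with the replicate block (3.29). Of the 18 regulators not past the edgeR threshold, 14 had negative and 4 positive log2 fold changes, from -2.43 to 1.13. The groups did not overlap for 9 of these 18, 7 of them lower, and for 12 of all 21, beside 25.7% of all tested genes. The list was chosen with earlier results known, so nothing is read from these counts. DESeq2 called 3 higher (Arntl, Npas2 and Clock) and 3 lower (Per2, Tef and Hlf), and limma-voom called Arntl higher and Per2 and Tef lower. The following were singled out after their values were seen. The clock gene Per1 had the most negative value (-2.43 ± 0.86) and Dbp, a clock output factor, the next (-1.77 ± 0.59), with edgeR adjusted p of 0.210 and 0.192. The related factors Tef (-1.14 ± 0.20) and Hlf (-0.90 ± 0.20) had edgeR adjusted p of 0.0504 and 0.0900, and Clock, a partner of Arntl, had the most positive value (1.13 ± 0.29, edgeR adjusted p = 0.123). The labels give no time of collection, and the part of the clock genes in the Alas1 difference was not tested.

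The cytochromes P450, the main users of haem in hepatocytes, were counted over 38 genes, 37 of them tested. None was higher and 3 were lower past the edgeR threshold, with a median log2 fold change of 0.10 and 26 positive values. Over all tested genes 0.837% were past it in either direction. This list too was chosen with earlier results known, so nothing is read from these counts. Cyp2a5, the coumarin hydroxylase of mouse liver, fell from 519, 381 and 427 CPM in control F1 to 32.9, 21.7 and 46.0 CPM in FR F1 (-3.72 ± 0.26, edgeR adjusted p = 0.00237). Cyp21a1 fell by 3.15 ± 0.23 on the log2 scale (edgeR adjusted p = 0.00237). Cyp2g1, known from olfactory mucosa, had 95, 45 and 79 counts in control F1 and 0 in all FR F1 libraries, at least 26.5-fold lower when 3 counts are allowed for each FR F1 library (edgeR adjusted p = 0.0145, not past the threshold without FR F1 replicate 1 or 2 or with the replicate block). The other 34 tested P450 genes were not past the edgeR threshold. DESeq2 called 5 lower, these 3 and also Cyp7a1 (-1.93 ± 0.47 in edgeR) and Cyp17a1 (-2.62 ± 0.57 in edgeR), and limma-voom called the same 3 as edgeR.

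Mitochondrial partners of the pathway, such as porphyrin and iron carriers, proteases acting on the synthase and haem-attaching enzymes, had 0 of 21 genes past the edgeR threshold, 3 with a p under 0.05 before adjustment and a median log2 fold change of -0.10. Over all tested genes, 17.9% had an unadjusted edgeR p under 0.05. Both DESeq2 and limma-voom called 1 of the 21, Clpx. Clpx encodes the unfoldase known both to activate 5-aminolevulinate synthase and, with Clpp, to degrade it. Its CPM was 208, 153 and 120 in control F1 and 330, 376 and 305 in FR F1, without overlap, and the log2 fold change was 1.07 ± 0.20 (edgeR adjusted p = 0.0588). It passed the threshold in edgeR with upper quartile factors (1.08), library totals (1.09) or no filter (1.06), and without control F1 replicate 1 (1.30) or 3 (0.90).

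Genes of haem and bilirubin transport and clearance had 0 of 14 past the threshold with edgeR, DESeq2 or limma-voom, 5 at an unadjusted edgeR p under 0.05 and a median log2 fold change of -0.20. Flvcr2, a member of the haem exporter family, stood at 22.0 ± 5.29 and 10.4 ± 3.98 CPM (-1.08 ± 0.35, edgeR adjusted p = 0.182), and the porphyrin efflux pump Abcg2 at 126 ± 12.7 and 168 ± 19.0 CPM (0.42 ± 0.14, edgeR adjusted p = 0.194). Haem proteins other than P450s also had 0 of 13 past the threshold with these 3 tools, 3 at an unadjusted edgeR p under 0.05 and a median of 0.25. Beside both lists, 17.9% of all tested genes had an unadjusted edgeR p under 0.05. The mitochondrial cytochrome Cyb5b stood at 418 ± 8.81 and 499 ± 13.6 CPM (0.25 ± 0.09, edgeR adjusted p = 0.193), and Gucy1b1, the haem-binding subunit of guanylate cyclase, at 8.76 ± 2.26 and 17.7 ± 4.51 CPM (1.01 ± 0.32, edgeR adjusted p = 0.173).

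Alas2, the erythroid isoform of the first enzyme, had 712, 187 and 258 counts in control F1 and 825, 857 and 868 in FR F1. The FR F1 libraries and control F1 replicate 1 were high and the other control F1 libraries low, so the groups overlapped (1.0 ± 0.44, edgeR adjusted p = 0.285). Counts of Alas1 per Alas2 count were 1.95, 8.99 and 5.12 in control F1 and 0.313, 0.313 and 0.147 in FR F1. Alas1 thus outnumbered Alas2 in every control F1 library and was outnumbered in every FR F1 library. An unadjusted edgeR p under 0.05 was found for 17.9% of all tested genes. Of 14 erythroid markers 13 are in the table and 5 were tested, with 0 past the edgeR threshold, 3 under 0.05 before adjustment, 1 called by DESeq2 (Klf1, lower) and 0 by limma-voom. Those 3 went in different directions, with Hba-a1 higher (0.72 ± 0.16) and Hbb-bt (-1.44 ± 0.61) and Klf1 (-2.15 ± 0.53) lower in FR F1. The summed level of the 13 markers in the table was 195 to 440 CPM in the control F1 libraries against 415 to 475 CPM in the FR F1 libraries. Alas2 was the largest part of this CPM sum in each library. The sum takes no account of transcript length, so it does not rank Alas2 against the globin genes. Epb42, Gata1 and Rhag had 2, 4 and 1 counts in all libraries together.

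Summed markers of some other liver cells also stood at different levels in the groups that differed in Alas1 and Cpox. Beside the counts that follow, 17.9% of all tested genes had an unadjusted edgeR p under 0.05. The 12 hepatocyte markers summed to 6840 to 8240 CPM in the control F1 libraries against 6840 to 7410 CPM in the FR F1 libraries, with 0 past the threshold by edgeR, DESeq2 or limma-voom, 3 at an unadjusted edgeR p under 0.05 and a median log2 fold change of -0.19. This list holds highly abundant genes such as Alb, whose differences could be understated, so a steady sum is not read as a steady level. The 10 sinusoidal endothelial markers summed to 461 to 692 and 810 to 969 CPM, with 0 past the edgeR threshold, 7 under 0.05 before adjustment, 4 called by DESeq2, 1 by limma-voom and a median of 0.90. The 10 stellate cell markers summed to 338 to 554 and 731 to 864 CPM, with 1 (Pdgfra) higher past the edgeR threshold, 7 under 0.05 before adjustment and a median of 0.81. DESeq2 called 3 of them (Dcn, Pdgfra and Reln) and limma-voom 1, which was Dcn and not Pdgfra. Neither sum overlapped between groups, and no marker of these lists was at 0 in all libraries. Summed Kupffer cell markers were at 287 to 585 and 381 to 753 CPM, cholangiocyte markers at 42.8 to 137 and 71.0 to 94.0 CPM, and B cell markers at 17.6 to 37.7 and 58.2 to 104 CPM. The B cell sums did not overlap either. In these 3 lists, in the same order, 10, 2 and 3 genes were tested and 2, 1 and 2 had an unadjusted edgeR p under 0.05. None was past the threshold by edgeR, DESeq2 or limma-voom, and the median log2 fold changes were 0.44, 0.39 and 1.34. The part of these cells in the Alas1 and Cpox differences was not tested.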

How the data were processed

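Counts per gene and library were deposited by the authors as 1 table of whole numbers. Per the submitters' processing notes, STAR, StringTie, HTSeq and DESeq2 were used with build mm10. No source used here gives tool versions or roles, the annotation release, the strand setting or the treatment of shared or duplicate reads. Per the labels, RNA was extracted with Trizol from flash frozen tissue, and the library kit named is a TruSeq kit for DNA. Columns were matched to samples through the code in each sample's description. Of 53715 gene IDs 53620 were matched to a symbol in GENCODE M21, 51464 with the same version, and Cpox and Fech were matched with a different version.

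The test was that of edgeR 4.0.16, run in R 4.3.3 (filterByExpr with minimums of 10 counts and 15 in total, TMM factors, two-sided quasi-likelihood F test of FR F1 against control F1, Benjamini-Hochberg adjusted p under 0.05 over all 13022 tested genes). The SE of a log2 fold change was taken as its size over the root of F. Replicates varied by 22.4% beyond counting error (common dispersion 0.05). Replicate pairs differed beyond counting noise (4.32 to 14.8 chi-square per degree of freedom), and none was treated as a duplicate. CPM per kb uses the longest protein-coding transcript of support level 1. Copies were searched with blastn 2.17.0, and at an identity of at least 85% no more than 25% of a member transcript matched another gene. Scripts were checked on simulated data.

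The members and gene lists were chosen with earlier results of these data known. Named genes were the 9 members, up to 4 genes of each other list past the threshold by smallest p (the 2 of smallest p where none was), and the 5 genes most like Alas1 on log2 CPM with a prior count of 2. Alas2, 5 regulators, 2 P450 genes and marker genes were named outside this rule, after their values were seen, and a gene that the rule would name is not reported here. The 16 alternatives were DESeq2 1.42.0, limma-voom (limma 3.58.1), 3 other scalings, 2 other filters, a robust fit, counts expanded as if limited to 1.25 per base pair, a replicate block and each library left out.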

Additional observations from a re-analysis of the deposited data

How the results depend on the processing

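Alas1 kept its direction under all 16 alternatives (-3.17 to -2.66), and so did Cpox (0.62 to 0.74) and Blvra (0.15 to 0.30). The count of changed genes, 109, was 423 with DESeq2, 1251 with no filter on low counts, 21 with the replicate block, and 7 to 651 when 1 library was left out (7 without FR F1 replicate 1, 651 without control F1 replicate 1). The cause of these shifts was not tested. The count of members past the threshold, 2, was 1 with limma-voom, RLE factors, the stricter filter and the replicate block, and 0 to 2 when 1 library was left out, 0 without FR F1 replicate 1. With 1 library left out the log2 fold change changed sign for Alad (-0.13 to 0.06), Uros (-0.06 to 0.11), Ppox (-0.02 to 0.19), Fech (-0.03 to 0.01) and Blvrb (-0.18 to 0.07), and reached zero for Urod (-0.19 to 0.00). Deviations of same-numbered libraries had correlations of -0.0173, 0.108 and 0.153, so the numbers were not taken to pair the libraries. Smyd1, Noct and Orm3 were past the threshold in 10, 13 and 10 of 16. Depth limits Blvra, whose difference of 0.23 had an SE of 0.18 at 63 to 98 counts per library.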
